A study of Mus musculus with 2 samples.

Results

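The Serpina3 genes of the mouse form a cluster on chromosome 12, the chromosome that also carries Lgmn, the gene for the lysosomal protease legumain. They were taken as every gene listed in the deposited tables whose symbol starts with Serpina3. RefSeq annotates 14 such genes in GRCm38.p6, of which 10 are protein coding and 4 are pseudogenes. The tables listed 5 of them among 15605 genes in all: Serpina3c, Serpina3f, Serpina3g, Serpina3i and Serpina3n. Serpina3f and Serpina3g had been chosen by their large ratio between these same libraries, so their own difference is given as a description and supports nothing.

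RNA was sequenced from peritoneal macrophages of C57BL/6 mice aged 6 to 8 weeks, co-cultured over 4 days with EO771, a line of mouse mammary carcinoma cells. The Lgmn knockout library came from Lgmn-/- mice and the other library from wild type mice, and both had been through the same co-culture. With 1 library per genotype there was no replicate, and no p-value is given for any difference. The number of mice behind a library, the structure of the Lgmn-/- allele and whether the EO771 cells were kept apart are not stated in the labels.

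Serpins are protease inhibitors that offer a protease an exposed stretch near their C-terminal end, the reactive centre loop, as bait. When the protease cuts the loop, the serpin changes shape and traps the enzyme. Human SERPINA3, or antichymotrypsin, is a plasma inhibitor of cathepsin G, while mice carry a whole cluster of related genes whose loops differ. Serpina3g, also known as Spi2A, is an intracellular member induced by interferon gamma and NF-kappaB signalling in mouse macrophages and lymphocytes, and it is known to inhibit cysteine cathepsins as well as serine proteases.

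Estimated counts totalled 11740202 in the knockout library, with 14756 genes listed, and 11885784 in the wild type library, with 14681 genes listed. Estimated counts come from RSEM, which divides reads among similar transcripts by an estimate and so need not be whole. Lgmn itself (Entrez gene 19141, chr12:102394082-102439728) had 426 estimated counts in the knockout library, against 23550 in the wild type library. It was lower by 64.4-fold in the knockout library (interval 58.5 to 71.1), the direction that its genotype label gives. Folds here are ratios of counts scaled between libraries by TMM, with 95% exact Clopper-Pearson intervals that cover counting error only. Log2 ratios had 1 scaled count added to both libraries. A gene was tested for size where its higher library held at least 50 estimated counts, and a difference of 2-fold was the threshold.

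Serpina3f (Entrez gene 238393, chr12:104214544-104221129, plus strand, 3 RefSeq transcripts) had 275.88 estimated counts in the knockout library, against 22.79 in the wild type library. Per transcript length and library this was 10.3 FPKM in the knockout library and 0.86 FPKM in the wild type library. The gene was 10.3-fold higher in the knockout library (6.72 to 16.5), and its log2 ratio of 3.31 was the 3rd highest of 9499 tested genes. Serpina3f thus lay above the median tested level of 8.35 FPKM in the knockout library and below the median of 6.81 FPKM in the wild type library. Ordered by FPKM from the top, it stood at place 4197 among the tested genes of the knockout library and at 8906 among those of the wild type library.

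Serpina3g (Entrez gene 20715, chr12:104236147-104241939, plus strand, 1 RefSeq transcript) had 251 estimated counts in the knockout library, against 32.41 in the wild type library. Its levels were 10.4 FPKM in the knockout library and 1.33 FPKM in the wild type library. Serpina3g, the intracellular inhibitor, was thus at nearly the same FPKM as its neighbour Serpina3f in the knockout library and somewhat above it in the wild type library. It was 6.73-fold higher in the knockout library (4.65 to 10.1), and its interval overlaps that of Serpina3f. Its log2 ratio of 2.72 was the 9th highest among those tested.

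The other listed members were at the edge of detection, and their estimated counts were lower in the knockout library. Serpina3n, which in the mouse inhibits granzyme B, had 3.04 estimated counts (0.12 FPKM) in the knockout library, against 12.17 (0.49 FPKM) in the wild type library. Its ratio of knockout over wild type was 0.215, with an interval of 0.0388 to 0.795. Serpina3i had 1.08 estimated counts (0.04 FPKM) in the knockout library, against 3.64 (0.14 FPKM) in the wild type library, a ratio of 0.215 whose interval of 0.00436 to 2.17 includes equality. Serpina3c was not listed in the knockout file and had 2 estimated counts (0.10 FPKM) in the wild type file, too few for a ratio. None of these members reached the minimum of 50 counts.

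**Figure D1:**
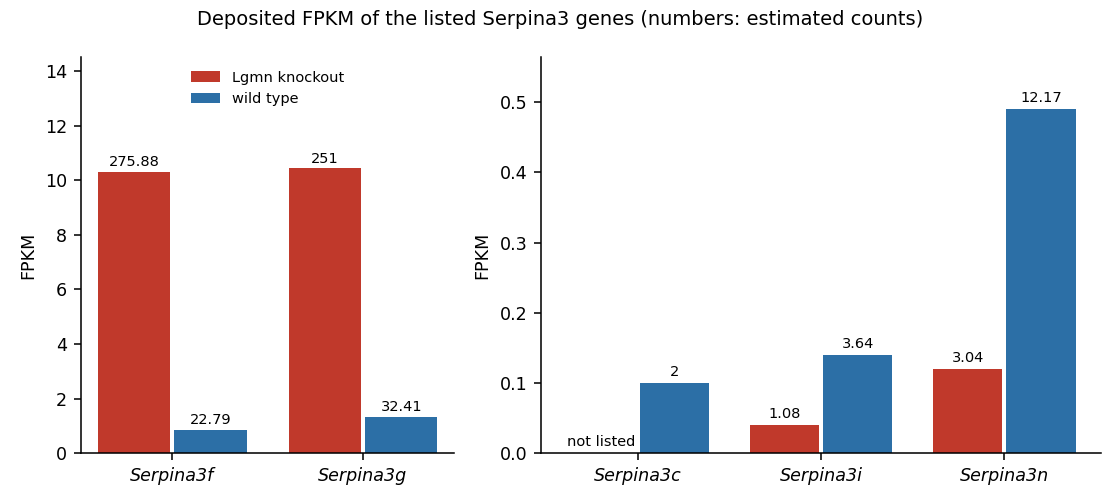
Deposited FPKM of the 5 listed Serpina3 genes in the Lgmn knockout library (red) and the wild type library (blue), 1 library each, with the estimated counts printed above the bars and a separate scale for each panel. Serpina3f and Serpina3g stand near 10 FPKM in the knockout library and near 1 FPKM in the wild type library, while Serpina3c, Serpina3i and Serpina3n stay below 0.5 FPKM in both.

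Both members that passed the minimum were at least 2-fold higher in the knockout library and 0 were lower. Each passed it through its knockout count alone, and the listed members that were lower in the knockout library fell below it. This split therefore depends on the minimum itself. Across all 9499 tested genes, 6.07% were higher by 2-fold or more and 1.74% were lower by 2-fold or more. In these libraries the ratio also varied with transcript length, and a smooth trend of the log2 ratio on log2 length was subtracted as a second setting. Serpina3f then had a log2 ratio of 3.41 and stood at place 2, and Serpina3g had 2.85 and stood at place 7. After this adjustment 2.14% of the tested genes were higher by 2-fold or more and 1.89% were lower. Because the rule used this contrast, nothing is read from these counts about the members.

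**Figure D2:**
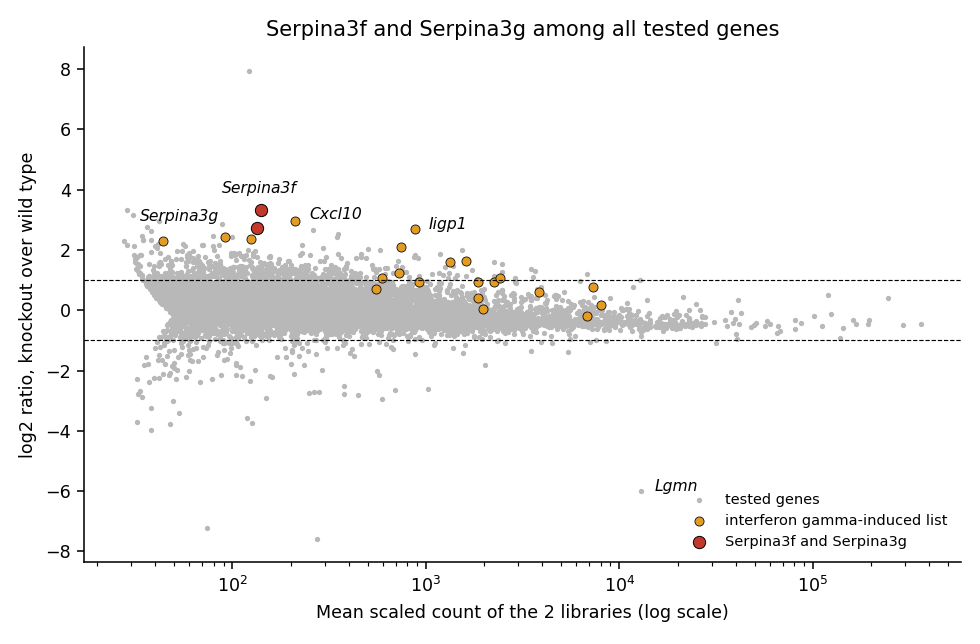
Log2 ratio of knockout over wild type against the mean scaled count of the 2 libraries (log axis) for the 9499 tested genes, with dashed lines at 2-fold. Serpina3f and Serpina3g (red) lie at log2 ratios of 3.31 and 2.72, beside Cxcl10 and Iigp1 of the interferon gamma-induced list (orange), and Lgmn lies at -6.01.

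Reads that fit more than 1 copy are shared out by RSEM, so the family was also summed, since a sum does not depend on how reads are divided within it. The 5 listed genes together had 531 estimated counts in the knockout library, against 73.01 in the wild type library. Their FPKM summed to 20.9 in the knockout library and to 2.92 in the wild type library, and the summed counts were 6.24-fold higher in the knockout library (4.88 to 8.08, log2 ratio 2.63). Serpina3f and Serpina3g alone summed to 526.88 estimated counts in the knockout library, against 55.2 in the wild type library, and were 8.22-fold higher (6.22 to 11.1). This pair made up 99.2% of the family's counts in the knockout library (98.1% to 99.8%), against 75.3% in the wild type library (63.9% to 84.7%). The family's RNA in the knockout library was therefore almost wholly assigned to Serpina3f and Serpina3g.

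Between the pair, Serpina3f took 52.4% of the counts in the knockout library (48.0% to 56.7%), against 41.8% in the wild type library (28.7% to 55.9%). These intervals overlap, so a change in the balance of the pair was not detectable at this depth. As a share of all counts, the family held 45.2 CPM in the knockout library and 6.14 CPM in the wild type library. Of the FPKM summed over all listed serpin genes, the family held 6.23% in the knockout library and 0.648% in the wild type library.

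How far the copies can be told apart was read from their transcripts in GENCODE vM21 (GRCm38). Of all stretches of 50 bases, 10.7% in the Serpina3f-202 transcript also occurred in another gene of the family, most often in Serpina3g, at 6.0%. For Serpina3g-201 the share was 16.02%, most often in the pseudogene Serpina3h, at 8.67%. Most of each transcript is thus distinct at that length, but the single values of Serpina3f and Serpina3g remain uncertain to the extent of the shared stretches. The labels do not say how strand was handled, so antisense transcription cannot be told apart either.

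Against Serpina3g, the stretch that codes for the reactive centre loop differed more than the part of the remaining coding sequence that could be aligned. The stretches below run from the conserved hinge to the conserved residues after the loop, in coding bases of GENCODE vM21 transcripts on the plus strand of GRCm38. They are shown because the loop sets which protease a serpin traps, and the sequence tells the pair that was high from Serpina3n. Capitals in the Serpina3g line mark bases that differ from Serpina3f, and capitals in the other lines mark bases that differ from Serpina3g.
Serpina3f-202, chr12:104220245-104220328: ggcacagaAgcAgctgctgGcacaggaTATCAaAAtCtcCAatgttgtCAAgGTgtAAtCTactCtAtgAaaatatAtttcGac
Serpina3g-201, chr12:104241072-104241152: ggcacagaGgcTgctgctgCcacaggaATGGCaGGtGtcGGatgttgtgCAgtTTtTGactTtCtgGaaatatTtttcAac
Serpina3n-201, chr12:104413448-104413528: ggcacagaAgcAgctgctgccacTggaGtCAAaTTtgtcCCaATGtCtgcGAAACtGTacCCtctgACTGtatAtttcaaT
The loops of Serpina3f and Serpina3g were identical at 57 of 81 aligned bases (70.4%), while the rest was identical at 91.0% of 625 aligned bases. Serpina3n shared 63.0% of the loop bases with Serpina3g, and Serpina3i shared 66.7%. Over 563 aligned bases of the rest, Serpina3n shared 88.3% and Serpina3i 89.5%. Loops were aligned end to end, but the rest only where it matched best, which can raise its identity. Serpina3g-201 has 744 coding bases, against 1335 in Serpina3f-202, 1254 in Serpina3n-201 and 1224 in Serpina3i-201. Much of the longer coding sequences was therefore not compared. A pair of adjacent TGT codons, which encode cysteine, occurred 1 time in the loop of Serpina3f and 1 time in that of Serpina3g, and 0 times in those of Serpina3n and Serpina3i. Other genes of the family, among them the listed Serpina3c, were not searched for it.

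The promoters of Serpina3f and Serpina3g are related copies as well. The sequences below are RefSeq windows of GRCm38.p6, 300 bases long, from 250 bases before to 50 after the annotated start on the plus strand. They are shown because the genes were high together, and capitals mark matches to TTCNNNGAA, the letters of a GAS element, a site known from the promoters of interferon gamma-induced genes.
Serpina3f, chr12:104214294-104214593: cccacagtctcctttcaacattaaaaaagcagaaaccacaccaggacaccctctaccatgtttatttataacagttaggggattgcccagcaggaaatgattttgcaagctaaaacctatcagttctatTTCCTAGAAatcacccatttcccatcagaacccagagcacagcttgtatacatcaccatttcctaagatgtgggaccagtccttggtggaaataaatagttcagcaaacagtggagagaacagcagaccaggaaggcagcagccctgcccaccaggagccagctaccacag
Serpina3g, chr12:104235897-104236196: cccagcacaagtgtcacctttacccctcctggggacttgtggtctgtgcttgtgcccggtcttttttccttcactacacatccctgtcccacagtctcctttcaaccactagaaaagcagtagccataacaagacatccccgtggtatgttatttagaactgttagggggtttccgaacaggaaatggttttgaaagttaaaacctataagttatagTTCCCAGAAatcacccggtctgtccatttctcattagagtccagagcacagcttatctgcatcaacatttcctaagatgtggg
Over 202 aligned bases the Serpina3f promoter was identical to that of Serpina3g at 83.7%. The GAS letters lay 121 bases before the start of Serpina3f and 33 bases before the start of Serpina3g. Serpina3f has a further annotated start, from which the same match lies 210 bases away.

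The same place in the other listed members was compared over 41 bases, 16 on either side of the motif. Capitals mark the 9 bases of the motif or those aligned with it, and all lines read in the direction of the gene, Serpina3c from the minus strand.
Serpina3f, chr12:104214407-104214447: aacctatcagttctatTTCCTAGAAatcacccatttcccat
Serpina3g, chr12:104236098-104236138: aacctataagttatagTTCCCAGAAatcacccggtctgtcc
Serpina3i, chr12:104263004-104263044: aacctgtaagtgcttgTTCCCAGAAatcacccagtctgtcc
Serpina3n, chr12:104406569-104406609: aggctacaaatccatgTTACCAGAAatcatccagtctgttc
Serpina3c, chr12:104153968-104154008: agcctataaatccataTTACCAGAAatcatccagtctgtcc
Serpina3f, Serpina3g and Serpina3i held the motif, and Serpina3n and Serpina3c each departed from it by C3A, counted from 1 at the 5′ end of the motif with the motif's base first. The motif was thus present in both members that were high in the knockout library and also in Serpina3i, which stayed at 1.08 and 3.64 estimated counts in the knockout and wild type libraries. On either strand, TTCNNNGAA occurred in 8.30% of the 32851 RefSeq promoters of that length.

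Other motifs were searched the same way, on both strands. The letters GAAANNGAA, the core of the ISRE bound by interferon-activated factors, occurred in 8.56% of all promoters and, among the listed members, in that of Serpina3f, where they overlap the GAS letters. The kappa B consensus, to which NF-kappaB binds, occurred in 8.46% of all promoters. Among the listed members it was found 85 bases before the start of Serpina3g and 154 bases before the start of Serpina3i. These matches describe letters only, and no binding was measured.

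Serpina3f starts 1.82 Mb and Serpina3g 1.84 Mb beyond the start of Lgmn, and 15017 bases separate them. The whole family of 14 genes spans 301.6 kb, with Serpina3c at 1.75 Mb, Serpina3i at 1.87 Mb and Serpina3n at 2.01 Mb from Lgmn. The pair is therefore on the same chromosome as the knocked-out gene but not beside it. Between the pair, which was high, and Serpina3n, which had few counts, lie Serpina3h, Serpina3i, Serpina3j, Serpina3k, Serpina3l-ps and Serpina3m, of which Serpina3i was listed and the others were not.

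The genes around the family were read to see whether the difference extended along the chromosome. Apart from Lgmn and the family, 19 listed genes lay between Lgmn and Serpina3n or were the next 3 beyond it. Of these, 12 were tested. In the knockout library 2 were at least 2-fold higher and 0 were lower, beside 6.07% and 1.74% of all tested genes. The median log2 ratio of the 12 was -0.30, beside -0.0004 over all tested genes, and the values ran from -0.62 to 1.33. None of these tested neighbours reached the ratios of Serpina3f and Serpina3g. The pair had been chosen by its large ratios, so nothing is read from that comparison. The other 7 listed genes of the region were under the minimum of 50 counts, and the 3 with the most counts are named here after their values were seen. Gm20604, at 0.35 Mb from Lgmn, had 35.13 estimated counts in the knockout library and was not listed in the wild type file. It overlaps Moap1, Tmem251 and Gon7, so its estimated count is uncertain. Asb2, a ubiquitin ligase subunit gene at 0.93 Mb, had 26 in the knockout library, against 4 in the wild type library, and was 5.58-fold higher (1.93 to 21.99). Clmn, beyond the family, had 29.96 in the knockout library, against 11.95 in the wild type library, and was 2.15-fold higher (1.07 to 4.6004).

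Dicer1, which encodes the nuclease that matures microRNAs, was the nearest tested gene beyond the family, 445.8 kb from Serpina3g. It had 219.02 estimated counts in the knockout library, against 74 in the wild type library, and was 2.54-fold higher (1.94 to 3.35). Syne3, which encodes a nuclear envelope protein, had 58 estimated counts in the knockout library, against 24 in the wild type library, and was 2.07-fold higher (1.27 to 3.49). It reached the minimum count in the knockout library only. After the length adjustment the log2 ratios of Dicer1 and Syne3 were 0.32 and 0.59. Of the 12 neighbours 0 were then at least 2-fold higher, beside 2.14% of all tested genes. On the Lgmn side the nearest tested gene, the interferon-induced Ifi27l2a, ended 770.9 kb before Serpina3f, and its relative Ifi27 overlaps it, so the division of counts between them is uncertain. Ifi27l2a had 4906 estimated counts in the knockout library, against 6003.98 in the wild type library (log2 ratio -0.51), and Ifi27 had 1567 in the knockout library, against 1780 in the wild type library (log2 ratio -0.40).

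**Figure D3:**
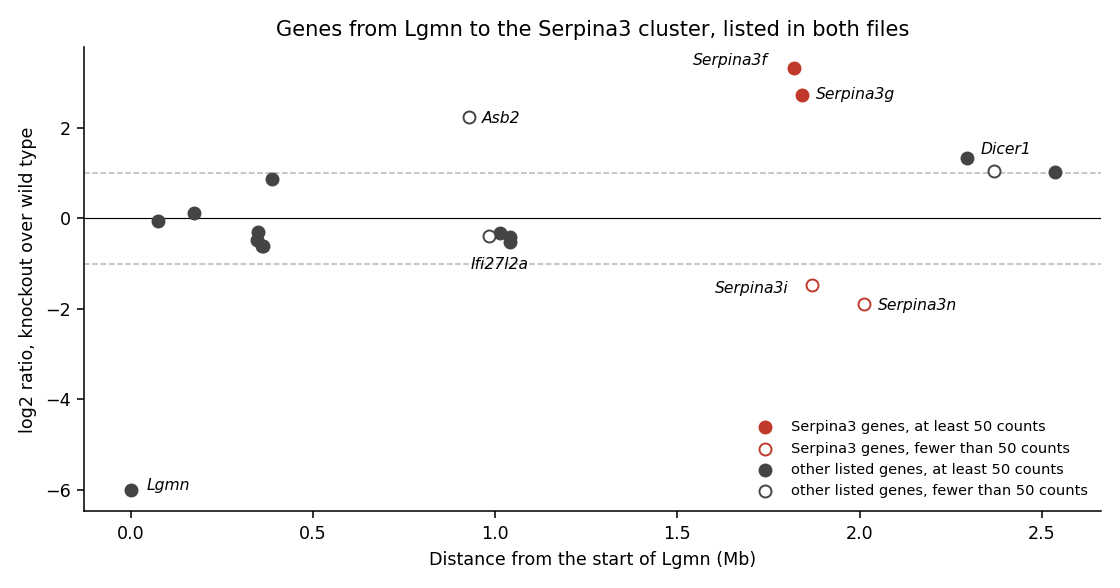
Log2 ratio of knockout over wild type against the distance from the start of Lgmn in Mb, for Lgmn, the Serpina3 genes (red) and the other genes of the region (dark grey) that are listed in both files, with open circles for genes under 50 estimated counts and dashed lines at 2-fold. Serpina3f and Serpina3g, at 1.82 and 1.84 Mb, stand at 3.31 and 2.72, the tested neighbours lie between -0.62 and 1.33, and Asb2, an open circle, lies at 2.24. Gm20604, with 35.13 estimated counts in the knockout library and none listed in the wild type file, is not drawn.

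The nearest relatives in the same chromosomal region were almost silent. Of 13 further clade A serpin genes of chromosome 12 considered, which encode mainly secreted liver products, 2 were listed. Serpina1a, for alpha-1-antitrypsin, had 1.08 estimated counts in the knockout library and was not listed in the wild type file. Serpina11 had 1 estimated count in the knockout library and was likewise not listed in the wild type file. The hepatocyte markers Alb, Apoa1, Ttr and Fgb, 4 of 4, were not listed in either file.

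Other serpins are given as values beside the pair, whose own ratios had been used to choose it. Apart from the family, 22 serpin genes were listed and 13 were tested. Of the 13, 0 were at least 2-fold higher in the knockout library and 8 were lower, beside 6.07% and 1.74% of all tested genes. The median log2 ratio of the 13 was -1.18 and their values ran from -3.74 to -0.12. After the length adjustment 0 were higher and 7 lower, beside 2.14% and 1.89% of all tested genes, and the median of the 13 was -1.02. The most abundant of them was Serpinb6a, an intracellular clade B serpin, at 230 FPKM in the knockout library and 267 FPKM in the wild type library, far above the 10.3 and 10.4 FPKM of Serpina3f and Serpina3g in the knockout library.

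Genes of the signals known to act on Serpina3g were considered as a list of 19, covering interferon gamma, its receptor, Janus kinases, transcription factors downstream of interferon, NF-kappaB subunits and Tnf. Of 18 tested, 3 were at least 2-fold higher in the knockout library and 0 were lower, beside 6.07% and 1.74% of all tested genes. The list's median log2 ratio was 0.52. Of its tested members, Ifng and the NF-kappaB subunit gene Rel reached the minimum count in the knockout library only. Ifng, which encodes interferon gamma, had 63 estimated counts in the knockout library, against 10 in the wild type library, and was 5.41-fold higher (2.75 to 11.8). Irf1, a transcription factor induced by interferon gamma, had 5396.96 estimated counts in the knockout library, against 1799 in the wild type library, and was 2.57-fold higher (2.44 to 2.72). Tnf, which encodes tumour necrosis factor, had 263 in the knockout library, against 109 in the wild type library, and was 2.07-fold higher (1.65 to 2.61). The ratios of Irf1 and Tnf lay below the intervals of Serpina3f and Serpina3g, while the interval of Ifng overlapped both.

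The transcripts of the interferon gamma receptor differed less than 2-fold. Ifngr1 had a log2 ratio of 0.14 and Ifngr2 of -0.57. Nfkbia, the NF-kappaB inhibitor that NF-kappaB itself induces, had 0.79, and it passed 2-fold after the length adjustment. With that adjustment 4 of the list were higher and 0 lower, beside 2.14% and 1.89% of all tested genes. The list's median was then 0.36. Ifnb1, which encodes interferon beta, had 1 estimated count in the knockout library and 1 in the wild type library.

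Genes known to be induced by interferon gamma were a second list, of 22. Of 21 tested, 11 were at least 2-fold higher in the knockout library and 0 were lower, beside 6.07% and 1.74% of all tested genes. The list's median log2 ratio was 1.05. After the length adjustment 9 were higher and 0 lower, beside 2.14% and 1.89% of all tested genes, and the list's median was 0.96. The list lay higher than the tested genes as a whole. It had been chosen with earlier results of these data known, so this is a description only. Of its tested members, Cxcl10, Cxcl9, Socs1 and Ciita reached the minimum count in the knockout library only, and the others reached it in both libraries. Serpina3f, at 3.31, lay above the list's highest value, the 2.96 of Cxcl10, but had itself been chosen by its ratio. Serpina3g, at 2.72, lay between Cxcl10 and Iigp1, the next highest of the list, at 2.70.

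Cxcl10, a chemokine for activated T cells, had 405 estimated counts in the knockout library, against 44 in the wild type library, and was 7.90-fold higher (5.78 to 11.04). Iigp1, an immunity-related GTPase, had 1633.74 in the knockout library, against 214.88 in the wild type library, and was 6.52-fold higher (5.65 to 7.55). These values stood closest to those of the Serpina3 pair within the list. Cxcl9, a further chemokine, was 5.48-fold higher, Socs1, a feedback inhibitor of Janus kinases, 5.26-fold and Ciita, the activator of MHC class II genes, 5.21-fold. The guanylate-binding protein genes Gbp4, Gbp5, Gbp7, Gbp9 and Gbp6 were 4.31-, 3.13-, 3.03-, 2.11- and 2.08-fold higher, and Nos2, for inducible nitric oxide synthase, 2.33-fold. Cd274, for PD-L1, and Psmb8, an immunoproteasome subunit, had log2 ratios of 0.16 and -0.18.

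Genes of the protease classes that Serpina3g and its relatives can trap were considered as lists, and whether each member is a target was not tested. Of 10 cysteine cathepsin genes tested, 1 was at least 2-fold higher in the knockout library and 0 were lower. The shares over all tested genes were 6.07% and 1.74%, and the list's median log2 ratio was -0.39. Ctsw, a cathepsin of NK and cytotoxic T cells, had 75 estimated counts in the knockout library, against 23 in the wild type library, and was 2.80-fold higher (1.73 to 4.68). Ctsw reached the minimum count in the knockout library only, and Ctsf, at a log2 ratio of -0.71, in the wild type library only. Ctsl and Ctsb, lysosomal cathepsins that Serpina3g is known to inhibit, had log2 ratios of -0.91 and -0.60. After the length adjustment 1 was higher and 1, Ctsl at -1.06, was lower, beside 2.14% and 1.89% of all tested genes. The median was then -0.26. In RNA Ctsl and Ctsb lay far above Serpina3g, which was at 10.4 FPKM in the knockout library and 1.33 FPKM in the wild type library. Ctsl was at 2472 FPKM in the knockout library and 3941 FPKM in the wild type library. Ctsb was at 2149 FPKM in the knockout library and 2750 FPKM in the wild type library. Protein amounts were not measured.

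Of 16 leukocyte serine protease genes considered, 15 were listed and 6 were tested. Of the 6, 0 were at least 2-fold higher or lower in the knockout library, beside 6.07% and 1.74% of all tested genes. The median log2 ratio of the 6 was 0.02. Gzmb, for granzyme B, the target of mouse Serpina3n, had 1489.68 estimated counts in the knockout library, against 780 in the wild type library, a log2 ratio of 0.71. Gzma, for granzyme A, had 1667 in the knockout library, against 939 in the wild type library, a log2 ratio of 0.61. Ctsg, for cathepsin G, the target of human SERPINA3, had 1 estimated count in the knockout library and 4 in the wild type library. After the length adjustment the median was 0.33, with 0 past 2-fold in either direction, beside 2.14% and 1.89% of all tested genes.

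**Figure D4:**
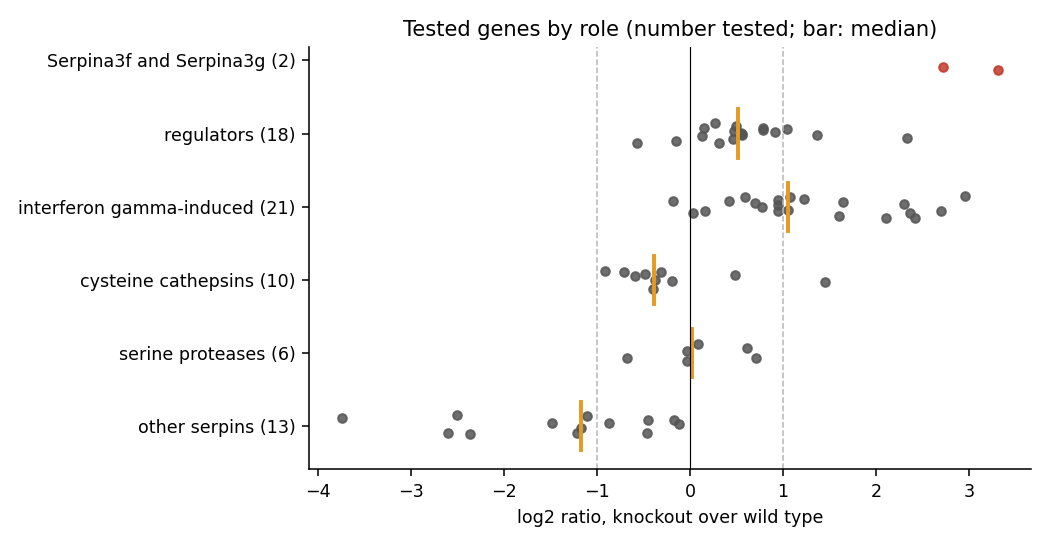
Log2 ratio of knockout over wild type for each tested gene, by role, with the number tested in brackets, an orange bar at each list's median and dashed lines at 2-fold; vertical scatter within a row has no meaning. Serpina3f and Serpina3g (red) lie at 3.31 and 2.72, the interferon gamma-induced list has a median of 1.05, and the other serpins have a median of -1.18.

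Markers of other cells also differed between the libraries, and in a bulk sample fewer cells of a type and less RNA per cell cannot be told apart. Counts of markers past 2-fold stand beside shares of 6.07% higher and 1.74% lower over all tested genes. Macrophage markers summed to 239720.59 estimated counts in the knockout library and 262728.88 in the wild type library, and of 8 tested 1, Mertk, an efferocytosis receptor, was at least 2-fold higher. Markers of T and NK cells summed to 565.21 in the knockout library and 234.12 in the wild type library, and 3 of 5 tested were at least 2-fold higher: Klrd1, Klrb1c and Cd3d. These, and Cd3g, reached the minimum count in the knockout library only, so this split depends on the minimum. All 9 of that list were listed, with Cd3e at 7 estimated counts in the knockout library and 2 in the wild type library. Dendritic cell markers summed to 103.28 in the knockout library and 26.12 in the wild type library, with Flt3 not listed in either file. Clec9a, the only one tested, was 4.88-fold higher and reached the minimum count in the knockout library only. Xcr1 had 23.28 estimated counts in the knockout library and 6.12 in the wild type library, and Zbtb46 had 6 and 7. All 5 fibroblast markers were at least 2-fold lower, summing to 296 in the knockout library and 1001 in the wild type library. Of these, Col1a1, Col3a1 and Pdgfra reached the minimum count in the wild type library only. Markers of B cells summed to 41 in the knockout library and 23 in the wild type library. Epithelial markers summed to 29 in the knockout library and 19 in the wild type library. Those of neutrophils summed to 469.65 in the knockout library and 366.62 in the wild type library, of which S100a8 alone held 456 and 361. Scaled between libraries, S100a8 was 1.08-fold higher (0.942 to 1.25). S100a9 had 1 estimated count in the knockout library and was not listed in the wild type file. The part of these cells in the levels of Serpina3f and Serpina3g was not tested.

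The tested genes with ratios nearest to that of the summed family were found by the absolute difference in log2 ratio over the same 2 libraries. They were Crebbp, a histone acetyltransferase, at 2.64, Fpr2, a formyl peptide receptor of phagocytes, at 2.66, Iigp1 at 2.70, Tgtp1, an interferon gamma-induced GTPase, at 2.53, and Setd1b, a histone methyltransferase, at 2.75, beside 2.63 for the family. Fpr2 had 485 estimated counts in the knockout library, against 65 in the wild type library, and Tgtp1 had 642.84 in the knockout library, against 95.26 in the wild type library. Crebbp had 71 in the knockout library, against 9 in the wild type library, and Setd1b 68.6, against 8.14. Crebbp and Setd1b reached the minimum count in the knockout library only, and their fold intervals were wide, at 3.37 to 15.4 and 3.55 to 17.8. Crebbp and Setd1b, whose transcripts are long, had log2 ratios of 1.88 and 1.83 after the length adjustment, while Fpr2, Iigp1 and Tgtp1 had 2.92, 2.66 and 2.52. With 2 libraries such likeness is a single ratio per gene and not a shared pattern.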

How the data were processed

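Per the labels' protocols, libraries were sequenced with the BGISEQ-500, and 1 Lgmn knockout and 1 wild type library were grouped by genotype label. The authors deposited estimated counts (expected counts) per Entrez gene, not scaled between libraries. They also deposited FPKM, which is scaled to transcript length and library size by its unit name in the file headers. HISAT2, Bowtie2, RSEM and mm10 are named without roles or versions, per the submitters' processing notes. The lowest listed FPKM was 0.01, and a gene missing from a file was treated as having 0 counts there.

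RefSeq GRCm38.p6, the same assembly as mm10, gave symbols for 15561 of the 15605 genes. Estimated counts were rounded and scaled by TMM in edgeR 4.0.16 under R 4.3.3, with factors of 1.09 for knockout and 0.921 for wild type. Ratios, ranks and trends (lowess, span 0.3) were computed over all tested genes in Python 3.11.15 with pandas 2.3.3, scipy 1.17.1 and statsmodels 0.14.6, and tested on simulated data. Intervals cover counting error only, since PCR copies of 1 molecule cannot be recognised. Promoters came from RefSeq and coding sequences from GENCODE vM21, read with Biopython 1.88. Protein sequences were not used here.

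The members and lists were chosen with earlier results of these data known. The text names every listed Serpina3 gene, Lgmn, the genes of the region past 2-fold or nearest to the family, the other serpins past 2-fold or most abundant, the members of each list past 2-fold or on which its text turns, and the 5 genes nearest in ratio to the summed family, clone and numbered names left out. Some genes that this rule takes are not reported here. Alternatives were DESeq2 1.42.0 size factors, library totals, median centring, FPKM, other pseudocounts and minimums, length adjustment and thinning.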

Additional observations from a re-analysis of the deposited data

How the results depend on the processing

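The log2 ratio of Serpina3f ran from 3.13 to 3.55, that of Serpina3g from 2.59 to 2.95 and that of the summed family from 2.57 to 3.02 over the settings run. Of 25 such values 0 reversed, 24 stayed within the counting interval and 1 did not: Serpina3f and Serpina3g summed alone gave 3.02, a sum chosen after seeing the data. Counts over all genes moved more. At least 2-fold higher were 577 genes, but 928 at a minimum of 10 counts, 274 at a minimum of 200, 1460 with no minimum, 1036 with library totals, 936 with FPKM and 203 after the length adjustment. At least 2-fold lower were 165, but 439 at a minimum of 10, 67 at a minimum of 200, 1531 with no minimum, 107 with library totals and 102 with FPKM. The share of higher genes among all those past 2-fold was 77.8%, but 67.9% at a minimum of 10, 48.8% with no minimum, 90.6% with library totals, 90.2% with FPKM and 53.0% after the length adjustment; the cause was not tested. No paired analysis was possible because each genotype had 1 library, and for the same reason no replicate could be left out. Spread between mice was not measured. At this depth Serpina3c, Serpina3i and Serpina3n are limited by counts of 12.17 or fewer.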

Other observations

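The serpin genes outside the Serpina3 family that were lower in the knockout library fell into several clades. Outside clades A and B, 4 of 5 tested were at least 2-fold lower, beside 1.74% of all tested genes. The median log2 ratio of the 5 was -2.50. Of the 5, Serpinf1 and Serping1 reached the minimum count in the wild type library only. Serpinf1, for pigment epithelium-derived factor, had 18 estimated counts in the knockout library, against 218 in the wild type library, and was 14.1-fold lower (8.72 to 24.3). Serpinh1, a collagen chaperone without inhibitory activity, had 121 in the knockout library, against 593 in the wild type library, and was 5.71-fold lower (4.69 to 7.004). Serping1, for the complement C1 inhibitor, had 23 in the knockout library, against 106 in the wild type library, and was 5.37-fold lower (3.40 to 8.84). All 5 fibroblast markers were lower in the same library, with a median log2 ratio of -1.99, and the part of fibroblast RNA in these serpin values was not tested.

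Of the clade B serpins, which are mostly intracellular, 4 of 8 tested were at least 2-fold lower, beside 1.74% of all tested genes. The median log2 ratio of the 8 was -0.79. Of the 8, Serpinb1c reached the minimum count in the wild type library only. Serpinb1c was 2.86-fold lower (1.89 to 4.43), Serpinb2, for a plasminogen activator inhibitor, 2.33-fold (2.07 to 2.62), Serpinb1a 2.28-fold (1.70 to 3.09) and Serpinb9b 2.17-fold (1.62 to 2.93). After the length adjustment 3 of the 8 were lower, beside 1.89% of all tested genes, and the clade B median was -0.62. Serpinb8 was at 24.2 FPKM in the knockout library and 24.4 FPKM in the wild type library, and Serpinb2 at 18.0 FPKM in the knockout library and 35.5 FPKM in the wild type library.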
